A study of Yarrowia lipolytica with 4 samples.

Results

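The alcohol dehydrogenases of the yeast Yarrowia lipolytica were compared between a strain lacking SUR2 and its parent. The genes were 9 listed identifiers, ADH1 to ADH7, FADH and FAO1. An identifier was kept only if its annotation text named an alcohol dehydrogenase or an alcohol oxidase. This left 8 of the 6447 protein-coding genes that were in both deposited tables. FAO1 (YALI0_B14014g), known as the fatty alcohol oxidase, was dropped, because its text said only that it was weakly similar to Cryptococcus neoformans SMG1. Its values are given apart at the end of the gene accounts. The tested strain carried ku70Δ::tc and sur2Δ::LEU2, and the parent, labelled WT, carried ku70Δ::tc alone. The background of both was PO1f, a leucine- and uracil-requiring laboratory strain, and both lacked intact KU70, which encodes a subunit of a DNA end-joining complex. SUR2 encodes the C4-hydroxylase of sphingoid bases. Cells were grown in YPD, a rich glucose medium, to an OD600 of 0.8 at 28 °C, and each strain had 2 libraries of messenger RNA.

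Alcohol dehydrogenases move hydrogen between an alcohol and its aldehyde, with a nicotinamide nucleotide as the partner. In yeasts they reduce acetaldehyde to ethanol at the end of fermentation, and they oxidise ethanol when it is used as a carbon source. Yarrowia lipolytica grows on alkanes and fats, and its alcohol dehydrogenases are also known for oxidising fatty alcohols to fatty aldehydes. In that pathway the ALK cytochrome P450s first hydroxylate the alkane, and fatty aldehyde dehydrogenases then make the fatty acid that enters beta-oxidation in the peroxisome. No alkane or added alcohol was part of the growth conditions described here.

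One deposited table listed transcripts and the other listed genes. Each strain had 1 library in each, and a library is called by its strain and its table. The sur2 deletion libraries held 16698719 reads (transcript table) and 8765729 reads (gene table), and the parent libraries held 16585818 and 13972149. SUR2 (YALI0_E17347g) had 0 and 0 reads in the deletion libraries, against 1402 and 1319 in the parent libraries. KU70 (YALI0_C08701g) had 52 and 14 reads in the deletion libraries and 89 and 23 in the parent libraries. Levels of different genes were compared as TPM, a relative abundance scaled for length and library size. Strains were compared by CPM, read counts relative to library totals that were scaled by TMM (trimmed mean) factors. On that scale the median gene had a log2 ratio of deletion over parent of -0.01 in the transcript table and 0.04 in the other. On the TPM scale it differed by 0.07 and by 0.79, so TPM of the deletion library of the gene table stands high against its parent for most genes. Of the 2 values of a strain, the one from the transcript table is given first. In cultures, fewer cells holding a transcript and less of it per cell cannot be told apart.

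FADH and ADH2 held most of the alcohol dehydrogenase transcripts in both strains, and their order differed between the strains. In the deletion strain FADH stood first at 256 ± 81.02 TPM (SD, n = 2 here and throughout), followed by ADH2 at 104 ± 58.0 and ADH3 at 67.4 ± 14.4. ADH4 and ADH5 came next at 27.1 ± 5.44 and 22.6 ± 19.9 TPM, and ADH6, ADH7 and ADH1 were at 4.42 ± 0.537, 1.51 ± 0.594 and 0.70 ± 0.269 TPM. In the parent ADH2 stood first at 283 ± 89.1 TPM, followed by FADH at 193 ± 21.0, ADH3 at 101 ± 52.9 and ADH4 at 39.1 ± 30.1. ADH5, ADH6, ADH1 and ADH7 were at 9.25 ± 2.55, 7.72 ± 6.79, 0.945 ± 0.530 and 0.71 ± 0.0424 TPM in the parent. Neighbours in these orders whose 2 libraries overlapped were ADH2 with ADH3 and ADH4 with ADH5 in the deletion strain. In the parent they were ADH5 with ADH6 and ADH1 with ADH7. ADH2 ranked 2119 and 1271 among the protein-coding genes by TPM in the deletion libraries, against 412 and 575 in the parent libraries. FADH ranked 799 and 606 in the deletion libraries, against 657 and 717 in the parent libraries.

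**Figure D1:**
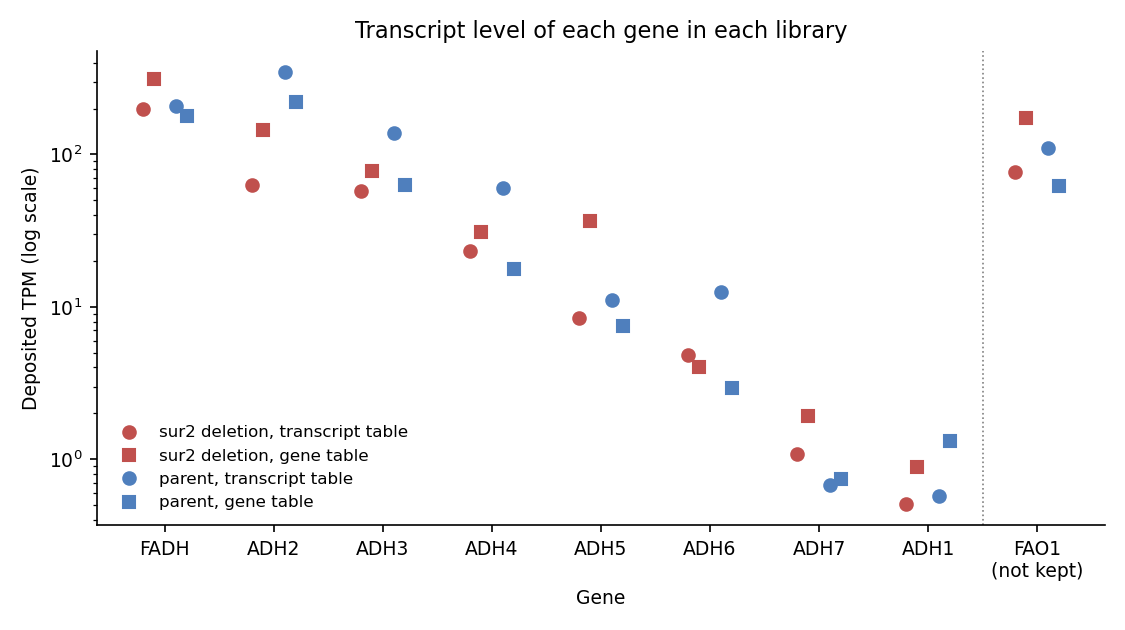
Deposited TPM on a log axis for each alcohol dehydrogenase gene and for FAO1, which was not kept, with 1 point per library, red for the sur2 deletion and blue for the parent, circles for the transcript table and squares for the gene table. ADH2 is lower in both deletion libraries, at 62.7 and 145 TPM, than in both parent libraries, at 346 and 220 TPM, while the strains overlap for FADH.

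The make-up of the family does not depend on how libraries are scaled to each other. ADH2 made up 17.5% and 23.7% of the summed TPM of the 8 genes in the deletion libraries, against 44.5% and 44.7% in the parent libraries. FADH made up 55.8% and 51.4% in the deletion libraries, against 26.8% and 36.3% in the parent libraries. The strains were apart for both shares, and the parent libraries were within 1 percentage point of each other for ADH2. Shares are parts of the same sum, so these 2 differences are not independent, and in CPM the strains overlapped for FADH. The TPM of ADH2 divided by that of FADH was 0.315 and 0.461 in the deletion libraries, against 1.66 and 1.23 in the parent libraries. Over ADH3, another ethanol-type dehydrogenase, ADH2 stood at 1.09 and 1.87 in the deletion libraries, against 2.50 and 3.47 in the parent libraries. ADH2, FADH and ADH3 together made up 87.8% to 93.9% in the 4 libraries. With 2 libraries in each strain an exact two-sided permutation test cannot give a p below 0.333, and it gave 0.333 for the share of ADH2.

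**Figure D2:**
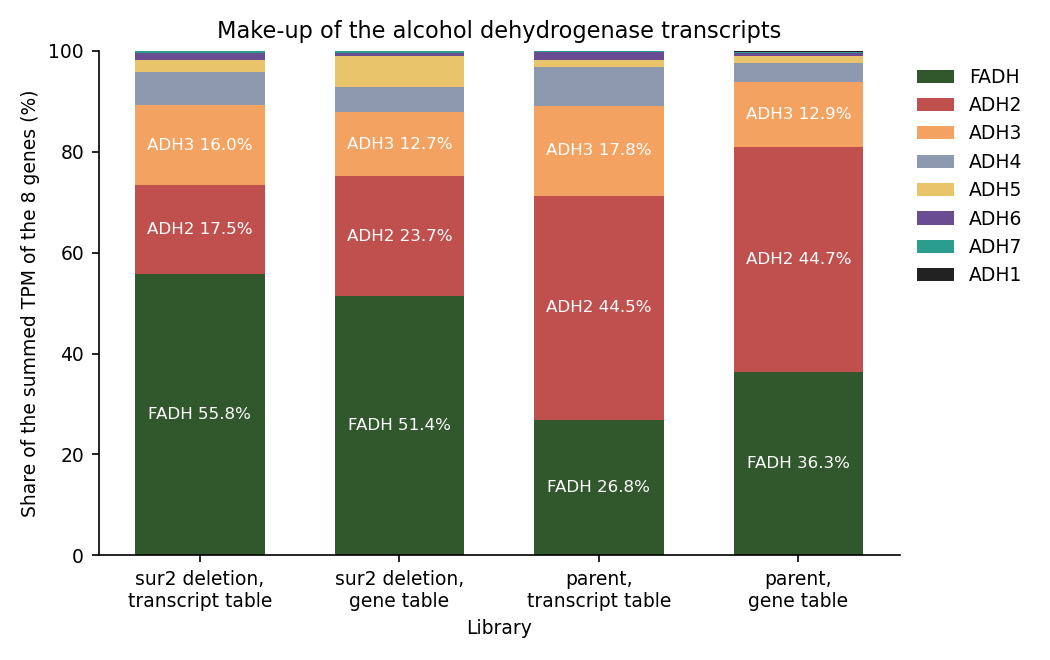
Share of each gene in the summed TPM of the 8 alcohol dehydrogenase genes, as percent, with 1 bar per library. FADH is the largest part in both sur2 deletion libraries, at 55.8% and 51.4%, and ADH2 is the largest part in both parent libraries, at 44.5% and 44.7%.

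The summed TPM of the 8 genes was 357 and 610 in the deletion libraries, against 778 and 492 in the parent libraries, and the strains overlapped. Within the tables the deletion library stood at 0.459 times the parent for the transcript table and at 1.24 times for the gene table. On TMM-scaled CPM per kilobase, chosen after the shift of the median gene was seen, these ratios were 0.44 and 0.743. Without ADH2 they were 0.65 and 1.02 on that scale, and 0.682 and 1.71 on the TPM scale. In the gene table the direction for the sum of all 8 genes therefore turned with the scale, and without ADH2 the direction did not turn.

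The comparison of the strains asks which of these genes differ when SUR2 is replaced by LEU2, and loss of the one and gain of the other cannot be told apart in it. With edgeR's quasi-likelihood test, adjusted by the Benjamini-Hochberg method over all 6051 genes tested, 0 of the 8 alcohol dehydrogenase genes passed an adjusted p of 0.05, and 1.24% of all tested genes did. At an unadjusted p under 0.05, 2 of the 8 were lower in the deletion strain, ADH2 and ADH3, beside 4.03% of all tested genes. DESeq2 called 1 of the 8 lower, ADH2, beside 2.05% of all tested genes. In CPM the strains did not overlap with the deletion lower for 2 genes, ADH2 and ADH3, and with the deletion higher for 1, ADH7, beside 20.2% and 22.1% of all tested genes. All 8 passed the filter on low counts. The median log2 fold change of the 8 was -0.89, against 0.03 over all tested genes. That median was -0.12 without the parent library of the transcript table and -0.59 without that of the gene table.

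**Figure D3:**
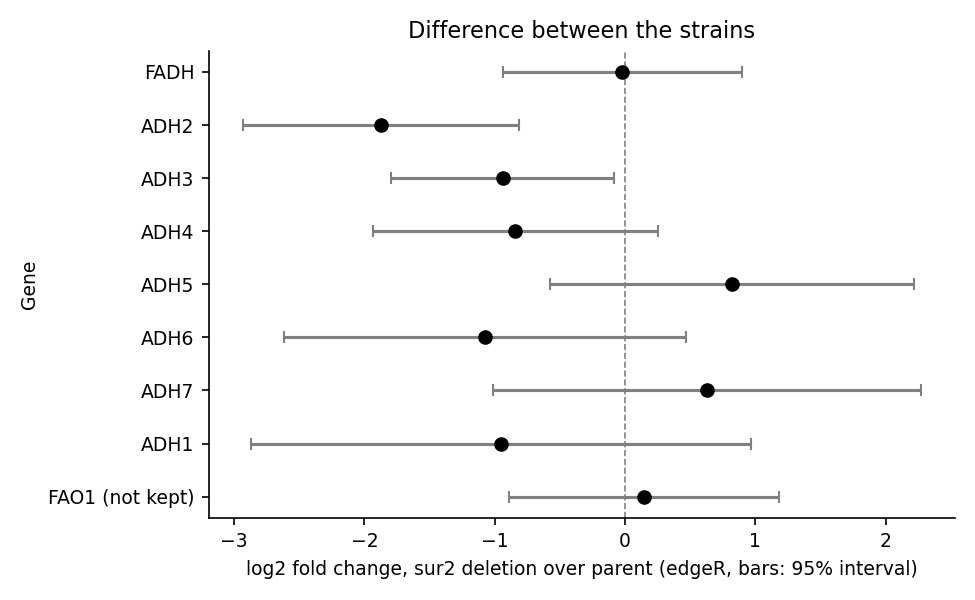
Log2 fold change of each gene, sur2 deletion over parent, with its 95% interval from edgeR's quasi-likelihood fit to the 4 libraries. The intervals of ADH2, from -2.93 to -0.81, and of ADH3, from -1.79 to -0.08, lie below 0, and neither gene passed after adjustment over all tested genes.

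ADH2 (YALI0_E17787g, chromosome E, 2099768 to 2100823, minus strand) is annotated as alcohol dehydrogenase 2 of Yarrowia lipolytica. It had 1477 and 1629 reads in the deletion libraries, against 8577 and 5025 in the parent libraries. These were 86.3 and 167 CPM in the deletion libraries, against 500 and 425 CPM in the parent libraries. Both deletion libraries were below both parent libraries, on the CPM and on the TPM scale. The log2 fold change was -1.87 ± 0.46 (SE; 95% interval -2.93 to -0.81), which corresponds to a level 3.66-fold lower in the deletion strain, and it did not pass (unadjusted p = 0.00357, adjusted p = 0.125, edgeR). DESeq2 gave -1.88 and an adjusted p of 0.00107. Over all alternatives the adjusted p ran from 0.00107 to 0.788. Dropping 1 library at a time left a lone library in its strain, and edgeR then gave log2 fold changes of -2.42 to -1.48. The value of -2.42 came when the gene table's deletion library, the higher of the deletion libraries at 167 CPM, was dropped.

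ADH2 lies on the same chromosome as SUR2, with 49095 bases between them. Of the 18 tested genes in that interval 0 passed edgeR's test, beside 1.24% of all tested genes. In 6 of the 18 both deletion libraries were below both parent libraries, beside 20.2% of all tested genes. The median log2 fold change of the 18 was 0.26, in a range of -1.20 to 1.73. The septin gene YALI0_E17765g on one side of ADH2 differed by 0.26 on the log2 scale (adjusted p = 0.859, edgeR). The gene on the other side, YALI0_E17809g, differed by -0.90 (adjusted p = 0.413, edgeR). Neither overlaps ADH2.

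ADH3 (YALI0_A16379g, chromosome A, 1675359 to 1676408, plus strand) is annotated as alcohol dehydrogenase 3 of Yarrowia lipolytica. It had 78.3 and 88.7 CPM in the deletion libraries, against 198 and 122 CPM in the parent libraries. The deletion libraries were close to each other and below both parent libraries. The log2 fold change was -0.94 ± 0.37 (95% interval -1.79 to -0.08; unadjusted p = 0.0355, adjusted p = 0.34, edgeR). The parent library of the transcript table was the higher parent library, and without it the fold change was -0.58. Without the parent library of the gene table it was -1.25. With the deposited table as a second term in the fit it was -0.90 (adjusted p = 0.489, edgeR). On the TPM scale the strains overlapped, with 57.2 and 77.6 in the deletion libraries and 138 and 63.4 in the parent libraries. Within the gene table ADH3 was lower in the deletion library on the CPM scale (log2 ratio -0.45) and higher on the TPM scale (0.29), where the median gene stood at 0.79.

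ADH1 (YALI0_D25630g, chromosome D, 3413441 to 3414490, minus strand), annotated as alcohol dehydrogenase 1, had few reads in every library. It had 12 and 10 reads in the deletion libraries, against 14 and 30 in the parent libraries. Exact 95% Poisson intervals, which cover counting error only, were 6.2 to 21.0 and 4.8 to 18.4 reads in the deletion libraries, against 7.65 to 23.5 and 20.2 to 42.8 in the parent libraries. The parent library of the gene table stood above the other 3. The log2 fold change was -0.95 ± 0.83 (95% interval -2.87 to 0.97; adjusted p = 0.742, edgeR), and without that library it was 0.065.

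ADH6 (YALI0_A15147g, chromosome A, 1560639 to 1561685, plus strand) is annotated by its similarity to ADH3. It had 6.54 and 4.60 CPM in the deletion libraries, against 17.9 and 5.58 CPM in the parent libraries. The parent library of the transcript table was high and the other 3 lay close together. Deletion over parent, the log2 fold change was -1.07 ± 0.67 (95% interval -2.61 to 0.47; adjusted p = 0.6, edgeR), and without that library it was -0.04. How the authors' counting treated reads that match more than 1 of these related genes is not given in the sources used here, so their split between ADH3 and ADH6, and among ADH1, ADH2 and ADH3, is uncertain.

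ADH4 (YALI0_E15818g, chromosome E, 1887434 to 1888912, minus strand) has some similarity to ADH4 of Saccharomyces cerevisiae, where ADH4 belongs to a different family of alcohol dehydrogenases from the other ethanol enzymes. It had 48.0 and 53.8 CPM in the deletion libraries, against 130 and 51.8 CPM in the parent libraries. Here too the parent library of the transcript table was high and the other 3 were alike. Its log2 fold change was -0.84 ± 0.47 (95% interval -1.93 to 0.25; adjusted p = 0.551, edgeR), and without that library it was -0.07.

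ADH5 (YALI0_D02167g, chromosome D, 244348 to 245388, plus strand) has some similarity to ADH5 of Saccharomyces cerevisiae. It had 11.4 and 41.4 CPM in the deletion libraries, against 15.7 and 14.1 CPM in the parent libraries. The deletion library of the gene table was high, and the other deletion library was below both parent libraries. The fold change on the log2 scale was 0.82 ± 0.61 (95% interval -0.57 to 2.22; adjusted p = 0.675, edgeR). Without the gene table's deletion library it was -0.38, and without the transcript table's it was 1.47. Each of these fits left a lone deletion library.

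ADH7 (YALI0_E07766g, chromosome E, 897661 to 898936, minus strand) is similar to the mitochondrial ADH3 of Saccharomyces cerevisiae. It had 26 and 22 reads in the deletion libraries, against 17 and 17 in the parent libraries. Their exact 95% Poisson intervals were 16.98 to 38.1 and 13.8 to 33.3 reads in the deletion libraries, against 9.9 to 27.2 in each parent library. As CPM these were 1.52 and 2.25 in the deletion libraries, against 0.992 and 1.44 in the parent libraries. The strains did not overlap, by a small margin. On the log2 scale the fold change was 0.63 ± 0.71 (95% interval -1.01 to 2.27; adjusted p = 0.819, edgeR).

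FADH (YALI0_F09603g, chromosome F, 1315744 to 1316889, minus strand) is similar to SFA1 of Saccharomyces cerevisiae, which oxidises long-chain alcohols and also the adduct of formaldehyde and glutathione. It had 303 and 401 CPM in the deletion libraries, against 333 and 382 CPM in the parent libraries. The 4 libraries were alike and the strains overlapped. FADH had a log2 fold change of -0.02 ± 0.40 (95% interval -0.94 to 0.89; adjusted p = 0.99, edgeR), and differences within that interval are not excluded. On the TPM scale, where the median gene was shifted, FADH had 199 and 314 TPM in the deletion libraries, against 208 and 179 TPM in the parent libraries.

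FAO1 (YALI0_B14014g, chromosome B, 1879706 to 1881535, plus strand), dropped by its annotation text, had 204 and 388 CPM in the deletion libraries, against 305 and 230 CPM in the parent libraries. Its strains overlapped, with the deletion library lower in the transcript table and higher in the gene table. Its fold change on the log2 scale was 0.15 ± 0.45 (95% interval -0.89 to 1.18; adjusted p = 0.951, edgeR).

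Set side by side within each table, the strain difference had the same sign for ADH1, ADH2, ADH3, ADH6 and ADH7 and opposite signs for ADH4, ADH5 and FADH. For ADH2 the log2 CPM ratio of deletion over parent was -2.54 for the transcript table and -1.35 for the gene table. For ADH4 it was -1.44 and 0.05, and for ADH5 it was -0.45 and 1.55. The table and the library cannot be told apart here, since each strain had 1 library in each table.

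**Figure D4:**
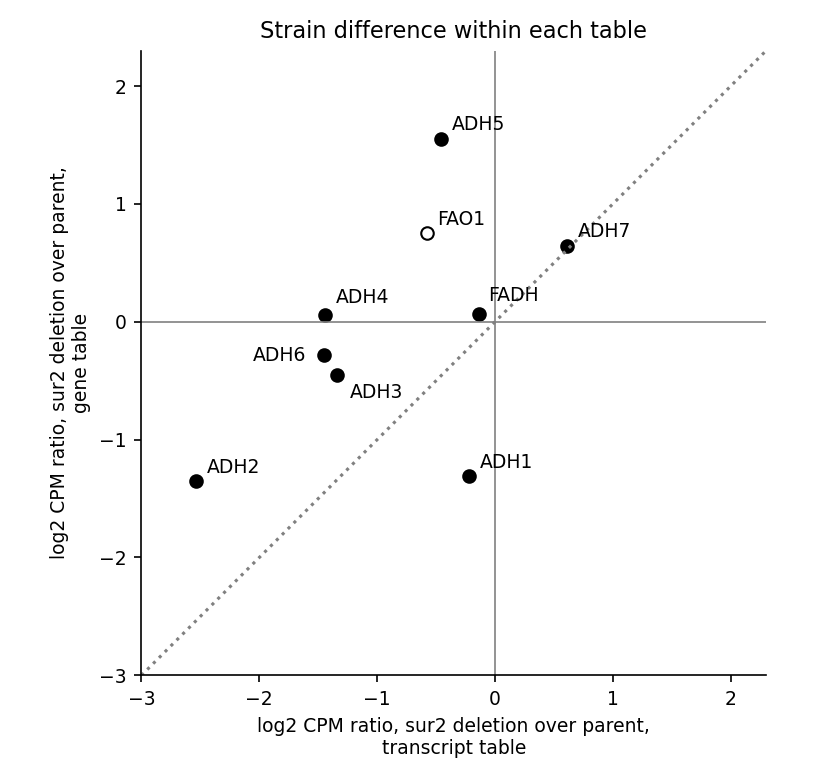
Log2 ratio of TMM-scaled CPM, sur2 deletion over parent, in the transcript table on the horizontal axis and in the gene table on the vertical axis, with 1 point per gene, FAO1 as an open circle and equal ratios on the dotted line. ADH2 lies lowest to the left, at -2.54 and -1.35, and ADH5 has opposite signs, at -0.45 and 1.55.

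The 18 features next to the 9 identifiers on their chromosomes overlapped none of them, with gaps of 380 to 7764 bases. Of the 13 that were tested 0 passed edgeR's test, beside 1.24% of all tested genes. So few genes cannot show a lower share. ADH4 lies 2249 bases from a formate dehydrogenase gene, YALI0_E15840g, which had 4 and 4 reads in the deletion libraries and 6 and 8 in the parent libraries and was not tested.

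Around the alcohol dehydrogenases, 0 genes passed edgeR's test in any of 7 lists of the same pathways, beside 1.24% of all tested genes. So few genes cannot show a lower share. The genes named here are therefore the 2 of smallest p in each list of more than 1. Of the ALK cytochrome P450 genes, which hydroxylate alkanes ahead of the alcohol dehydrogenases, 11 of 12 were tested, with a median log2 fold change of 0.42. ALK6 (YALI0_B01848g) had 17.3 and 34.2 CPM in the deletion libraries, against 14.9 and 13.0 CPM in the parent libraries, and a log2 fold change of 0.88 ± 0.48. ALK10 (YALI0_B20702g) had 12 and 6 reads in the deletion libraries, against 5 and 3 in the parent libraries. ALK8 (YALI0_C12122g), with 3 and 0 reads against 2 and 0, was not tested.

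The 4 fatty aldehyde dehydrogenase genes, whose enzymes act on the product of fatty alcohol oxidation, had a median log2 fold change of 0.41. HFD1 (YALI0_F23793g) had 271 and 549 CPM in the deletion libraries, against 171 and 192 CPM in the parent libraries. Its log2 fold change was 1.18 ± 0.46 (adjusted p = 0.334 with edgeR and 0.128 with DESeq2). Leaving out the transcript table's deletion library, the nearer to the parent libraries, left a lone deletion library and gave 1.59. HFD3 (YALI0_A17875g) had 2.57 and 1.43 CPM in the deletion libraries, against 5.37 and 4.06 CPM in the parent libraries, and a log2 fold change of -1.22 ± 0.66. For both genes the strains did not overlap, in opposite directions, beside 22.1% of all tested genes higher and 20.2% lower. HFD4 (YALI0_B01298g) did not overlap either, with 23.6 and 40.4 CPM in the deletion libraries, against 21.5 and 22.4 CPM in the parent libraries.

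The 6 acyl-CoA oxidase genes, which start peroxisomal beta-oxidation, had a median log2 fold change of -0.07. POX5 (YALI0_C23859g) had 19.5 and 27.3 CPM in the deletion libraries, against 80.4 and 50.8 CPM in the parent libraries. Its log2 fold change was -1.49 ± 0.41 (adjusted p = 0.172 with edgeR and 0.0286 with DESeq2), so the call turned with the test. Of the 6 genes DESeq2 called POX5 alone, beside 2.05% of all tested genes called lower. Without the gene table's deletion library, which left a lone deletion library, it was -1.75. POX3 (YALI0_D24750g) had a log2 fold change of 0.53 ± 0.47. The 3 regulators of the alkane response had a median of -0.95. Of these, YAS1 (YALI0_C02387g), an activator of the ALK genes, had 2.34 and 1.33 CPM in the deletion libraries, against 5.95 and 1.69 CPM in the parent libraries. YAS2 (YALI0_E32417g), its partner, had 87.8 and 65.9 CPM in the deletion libraries, against 248 and 48.5 CPM in the parent libraries. For both, as for ADH4 and ADH6, the parent library of the transcript table was high.

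Only 1 other gene was annotated as an alcohol dehydrogenase, the putative aryl-alcohol dehydrogenase YALI0_C12595g. It had 16.9 and 41.3 CPM in the deletion libraries, against 11.02 and 11.25 CPM in the parent libraries, and a log2 fold change of 1.38 ± 0.52 (adjusted p = 0.31, edgeR). DESeq2 gave it an adjusted p of 0.166. With the transcript table's deletion library left out, the nearer to the parent libraries, a lone deletion library remained and its log2 fold change was 1.89. Of 6 genes between pyruvate and acetyl-CoA by way of acetaldehyde, 5 were tested, with a median of 0.07. The mitochondrial aldehyde dehydrogenase gene YALI0_F04444g differed by 0.88 ± 0.42 on the log2 scale, and the aldehyde dehydrogenase gene YALI0_D07942g by -0.54 ± 0.42. The 11 genes of formaldehyde and formate oxidation, into which an SFA1-type enzyme feeds, were mostly formate dehydrogenases, and 10 were tested, with a median of 0.66. Among them YALI0_F28765g had 7.12 and 10.4 CPM in the deletion libraries, against 26.0 and 30.5 CPM in the parent libraries. Its log2 fold change was -1.69 ± 0.45 (adjusted p = 0.157 with edgeR and 0.0207 with DESeq2), so the call turned with the test. Of the 10 genes tested DESeq2 called YALI0_F28765g alone, beside 2.05% of all tested genes called lower. Without the gene table's deletion library, which left a lone deletion library, it was -1.99. YALI0_E14256g had 14 and 33 reads in the deletion libraries, against 4 and 8 in the parent libraries, and a log2 fold change of 2.20 ± 0.99.

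**Figure D5:**
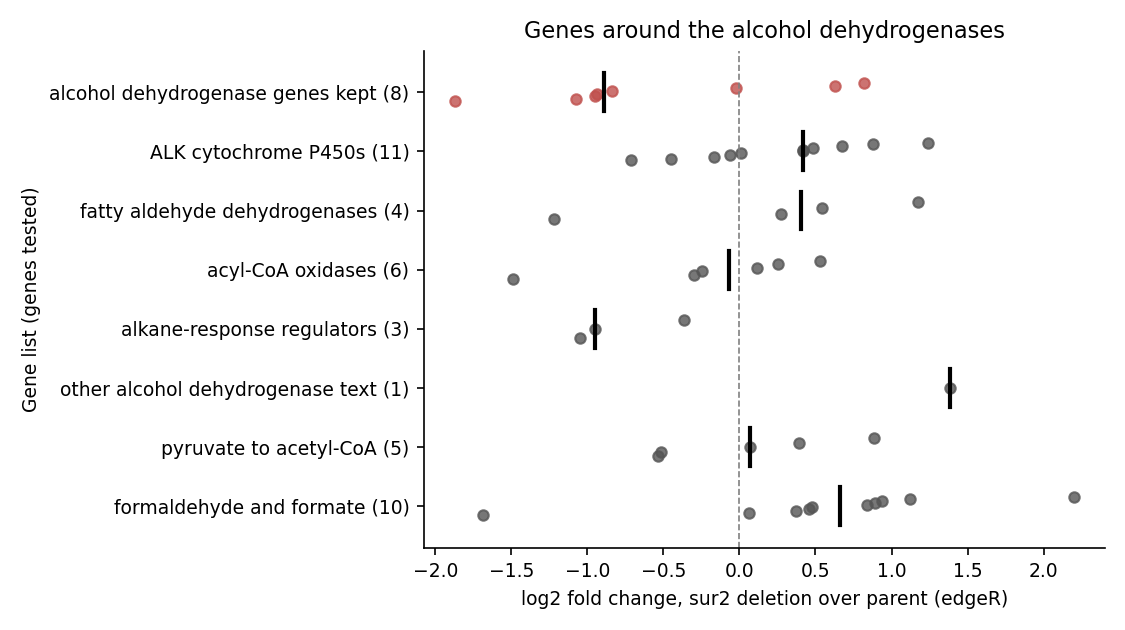
Log2 fold change, sur2 deletion over parent, of each tested gene in the lists around the alcohol dehydrogenases, with the number tested in brackets and a black bar at each list's median. The median is -0.89 for the alcohol dehydrogenases and -0.95 for the alkane-response regulators. It is 0.42 for the ALK cytochrome P450s and 0.66 for the formaldehyde and formate genes. No point passed edgeR's test, beside 1.24% of all tested genes.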

How the data were processed

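The authors deposited whole-number read counts per transcript and per gene, and TPM values, per the file headers. Libraries were made with a stranded mRNA kit, per the labels' protocols. The sources used here do not give the aligner, counter, strand setting or genome build. In both tables together, 4 further columns of values were not used. The 8381 features in both tables were joined by identifier, and 1 feature is not reported here. Columns name the strain, not the replicate number. Nothing in the labels says that the 2 libraries of a strain came from separate cultures. The p-values then reflect the spread between libraries alone, which may be technical. The 6051 genes left by filterByExpr went through the quasi-likelihood test of edgeR 4.0.16 under R 4.3.3 (TMM factors 0.846 to 1.115, strain as the only term, two-sided). The common dispersion was 0.1424. DESeq2 1.42.0, limma 3.58.1 on log2 TPM with pseudocounts of 1 and 0.1 (mean TPM of at least 1), no filter, another normalization, the table as a term and leaving out each library were alternatives. Standard errors were the fold change over the root of F. A count of 0 allows up to 3 reads, 0.18 to 0.342 CPM before TMM scaling. Genes and lists were chosen with earlier results of these data known. All listed identifiers are named, and in each list the genes that pass or else the 2 of smallest p. Phrases were matched as whole words.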

Additional observations from a re-analysis of the deposited data

How the results depend on the processing

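No alcohol dehydrogenase gene passed under edgeR with the other normalization, without the filter, with limma on TPM, or with the table as a second term. With DESeq2 1 passed, ADH2. For these genes, fits with a library left out are given by size alone, since each leaves a lone library in its strain. Without the transcript table's deletion library ADH5 had a log2 fold change of 1.47, and without the gene table's ADH2 had -2.42. Over all tested genes the count of 75 became 386 with DESeq2, 196 and 212 with limma at pseudocounts of 1 and 0.1, and 145 with the table as a term. With each library left out it ran from 0 to 685, in fits that assume the lone library of a strain to vary like the other strain's. It was 0 without either parent library, where 414 and 361 genes had an unadjusted p under 0.05, and 685 and 204 without the deletion library of the transcript and of the gene table. The log2 fold change of FADH was 0.37 with limma at both pseudocounts, where the median gene stood at 0.40 and 0.43. With each library left out it ran from -0.24 to 0.16, that of ADH1 from -1.60 to 0.065, that of ADH5 from -0.38 to 1.47 and that of FAO1 from -0.39 to 0.53. The cause was not tested. For HFD1, POX5, YALI0_C12595g and YALI0_F28765g only the fit without the deletion library nearer the parent libraries is given. That fit gave a larger difference than the fit to every library, and the fits without the other libraries are not given here. The share of ADH2 in the parent was 44.2% by CPM per kilobase, with or without TMM scaling, against 44.6% by TPM. ADH7 and ADH1 had 10 to 30 reads a library, and ADH1 was below the TPM filter of limma. No paired analysis was possible because the columns carry no replicate numbers, other than the fit with the table as a term, which pairs the strains by table and gave -1.94 for ADH2 (adjusted p = 0.121, edgeR).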

Other observations

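A gene outside the lists was singled out after its values were seen. YALI0_D06930g (chromosome D, 886445 to 888247) is annotated by its similarity to ARO10 of Saccharomyces cerevisiae, a phenylpyruvate decarboxylase whose aldehyde products alcohol dehydrogenases turn into fusel alcohols. It had 900 and 658 CPM in the deletion libraries, against 2482 and 2216 CPM in the parent libraries. Both deletion libraries were below both parent libraries, as in 20.2% of all tested genes. Its log2 fold change was -1.59 ± 0.45 and did not pass with edgeR (adjusted p = 0.181), while DESeq2 gave an adjusted p of 0.00155. The call therefore turned with the test, and DESeq2 called 2.05% of all tested genes lower. A link between this gene and the level of ADH2 was not tested. Without the transcript table's deletion library, which left a lone deletion library, edgeR gave -1.84.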
